A study of Mus musculus with 6 samples.

Results

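Nuclear-encoded subunits of respiratory complexes II, III, IV and V were followed in retinal RNA of mice carrying the C234W substitution in Elovl2 and of wild-type (WT) mice. Members were the protein-coding gene models named Sdha, Sdhb, Sdhc or Sdhd, or with a symbol beginning with Uqcr, Atp5 or Cox4 through Cox8. They numbered 47 of the 25124 gene models in the deposited table, with 4 in complex II, 8 in complex III, 18 in complex IV and 17 in complex V. The choice used symbols alone and no measured value. The C234W group consisted of libraries FS3A, FS3B and FS5A, and the WT group of libraries WT1A, WT2A and WT2B, so there were 3 of each. All 6 were made from poly-adenylated RNA of whole retinas of C57BL/6J mice aged 4 months, and the only difference the labels give is the Elovl2 genotype. Elovl2 elongates long-chain polyunsaturated fatty acids, and the study set the retinal transcriptomes of the genotypes against each other. The labels do not say whether the allele was homozygous or whether each library came from its own animal, so the spread behind each p-value is that between libraries and may be technical. Column names beginning with FS are not explained, and their assignment to C234W was by elimination, which sets the direction of every difference.

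Complex II (succinate dehydrogenase) feeds electrons from succinate to ubiquinone, complex III passes them to cytochrome c, complex IV (cytochrome c oxidase) hands them to oxygen, and complex V (ATP synthase) uses the resulting proton gradient to make ATP. Complex II is encoded wholly in the nucleus, whereas the other complexes join nuclear-encoded subunits to a few made inside the mitochondrion. Photoreceptors have a high demand for ATP, and their inner segments are packed with mitochondria.

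Counts in genes ran from 14184093 to 19298613 per library. Rod marker RNA, the summed level of Gnat1, Pde6b, Sag and Nrl, ran from 23693 to 27738 CPM (counts scaled by library total and TMM factor to a common size) in C234W libraries and from 32098 to 51330 CPM in WT libraries, so the tissue carried defining markers of retina. Library WT1A stood apart from the other WT libraries. It had the highest rod sum, and its sum of 4 pigment epithelium markers was 674 CPM, against 62.1 and 158 CPM in the other WT libraries. WT2A and WT2B were closer to each other than any other pair of libraries, at a chi-square per degree of freedom of 9.97 against at least 30.6 for the other pairs. Elovl2 itself, chosen here as the substituted gene, was measured at 81.95, 90.1 and 116 CPM in C234W retinas and 142, 138 and 136 CPM in WT retinas (log2 fold change -0.53, SE 0.165, adjusted p = 0.101 in edgeR), and a substitution need not change the transcript level, so these values do not check the labels.

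The sequences just before the transcription start of 5 members are shown because these genes bracket what was measured. Sdhd, Uqcrh, Cox5b and Atp5k had the smallest p in their complexes, and Sdha was the complex II subunit with no lower level in C234W. Each run is the 250 bases before the start, 5′ to 3′ on the gene's strand, from RefSeq on GRCm38.p6. Capitals mark the letters GCGCATG, a core of sites bound by NRF1, and CCGGAAG, a core of ETS-family sites, on either strand. NRF1 and the ETS-family factor GABP are known activators of many nuclear genes for mitochondrial proteins.
Sdhd (chr9:50603850-50604099, minus strand): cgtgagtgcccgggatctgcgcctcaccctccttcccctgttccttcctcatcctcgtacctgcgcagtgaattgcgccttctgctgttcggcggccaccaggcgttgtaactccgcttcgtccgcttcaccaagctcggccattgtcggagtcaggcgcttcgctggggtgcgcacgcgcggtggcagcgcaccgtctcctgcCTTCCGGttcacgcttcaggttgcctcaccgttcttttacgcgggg
Sdha (chr13:74350241-74350490, minus strand): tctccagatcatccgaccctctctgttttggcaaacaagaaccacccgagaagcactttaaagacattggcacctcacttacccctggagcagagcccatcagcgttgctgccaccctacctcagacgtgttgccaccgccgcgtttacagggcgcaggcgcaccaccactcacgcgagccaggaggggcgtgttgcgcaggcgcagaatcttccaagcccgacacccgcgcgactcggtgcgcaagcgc
Uqcrh (chr4:116075071-116075320, minus strand): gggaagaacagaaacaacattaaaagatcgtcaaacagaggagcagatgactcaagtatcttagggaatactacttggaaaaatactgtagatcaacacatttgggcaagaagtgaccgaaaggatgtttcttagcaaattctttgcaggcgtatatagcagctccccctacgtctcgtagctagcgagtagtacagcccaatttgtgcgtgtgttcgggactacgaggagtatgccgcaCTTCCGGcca
Cox5b (chr1:36691237-36691486, plus strand): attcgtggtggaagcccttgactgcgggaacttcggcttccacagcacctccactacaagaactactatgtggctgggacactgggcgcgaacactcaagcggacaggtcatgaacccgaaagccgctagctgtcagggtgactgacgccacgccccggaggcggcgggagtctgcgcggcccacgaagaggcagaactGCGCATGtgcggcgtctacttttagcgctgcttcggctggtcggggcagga
Atp5k (chr5:108434400-108434649, minus strand): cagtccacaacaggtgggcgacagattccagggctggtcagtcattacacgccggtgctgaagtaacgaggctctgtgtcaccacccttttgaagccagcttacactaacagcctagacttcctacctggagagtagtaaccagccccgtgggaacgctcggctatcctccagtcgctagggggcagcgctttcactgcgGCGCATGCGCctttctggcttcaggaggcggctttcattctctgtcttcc
Sdhd held the ETS letters at position -46 from the start and Uqcrh held them at -10, both read on the opposite strand. Cox5b held the NRF1 letters at -51. Atp5k held them on both strands within the overlapping run GCGCATGCGC, and Sdha held neither motif in this window. Windows reaching 50 bases past the start, 300 bases in all, were matched for 34 of the 47 members. The NRF1 letters were in 8 of these (23.5%), against 7.01% of 11097 tested genes with a window and 3.91% of all 32851 RefSeq windows. The ETS letters were in 12 members (35.3%), against 17.4% of tested genes and 8.86% of all windows. Another motif, AGATGGC for the factor YY1, was in 2 members (5.88%), against 6.95% of tested genes and 6.40% of all windows. These counts describe letters, and occupancy by any factor was not measured. Members with the ETS letters had a median log2 fold change of -0.78 over 12 tested genes, against -0.63 over 20 without them. For the NRF1 letters the order was the other way, with -0.57 over 8 members and -0.74 over 24 without them.

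Levels per kilobase of transcript spread widely among subunits of the same complex. In WT retinas Cox4i1, a regulatory subunit of complex IV, ranked first at 871 ± 84.0 CPM per kilobase (SD, n = 3), and in C234W retinas it stood at 490 ± 55.1 CPM per kilobase (SD, n = 3). The catalytic beta subunit of ATP synthase, Atp5b, came next in WT, at 619 ± 45.7 CPM per kilobase in C234W and 793 ± 185 CPM per kilobase in WT (SD, n = 3 each), and these first places in WT were within each other's spread. Cox8a, a small membrane-spanning subunit of complex IV, followed at 275 ± 36.8 CPM per kilobase in C234W and 528 ± 62.3 CPM per kilobase in WT (SD, n = 3 each). Uqcrh, the acidic hinge protein of complex III, had 260 ± 26.4 CPM per kilobase in C234W and 450 ± 2.66 CPM per kilobase in WT (SD, n = 3 each). The 4 genes of complex II ranked 28, 33, 35 and 36 of 47 in WT, with means between 69.4 CPM per kilobase for Sdhb and 112 CPM per kilobase for Sdha. Several members of the same stoichiometric complexes were far lower. Cox7c was at 14.02 ± 2.93 CPM per kilobase in C234W and 18.2 ± 1.95 CPM per kilobase in WT, and Atp5l at 12.6 ± 4.44 CPM per kilobase in C234W and 15.5 ± 3.83 CPM per kilobase in WT (SD, n = 3 each).

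These low levels stand beside a property of the counting. The deposited counts used uniquely mapped reads, and 48.2% of the 50-base words of Cox7c and 68.5% of those of Atp5l also occurred in annotated transcripts of other genes, so reads from these stretches could be lost. Atp5g1 shared 56.2%, Atp5h 47.9%, Atp5g2 46.4%, Uqcrb 43.2% and Atp5md 40.6% of their words, and the levels of these members are uncertain for that reason. In all, 14 members shared more than 10% of their words. Their median WT level was 116 CPM per kilobase, against 152 CPM per kilobase for the other 33 (170 CPM per kilobase for the 29 of them that passed the filter on low counts).

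**Figure D1:**
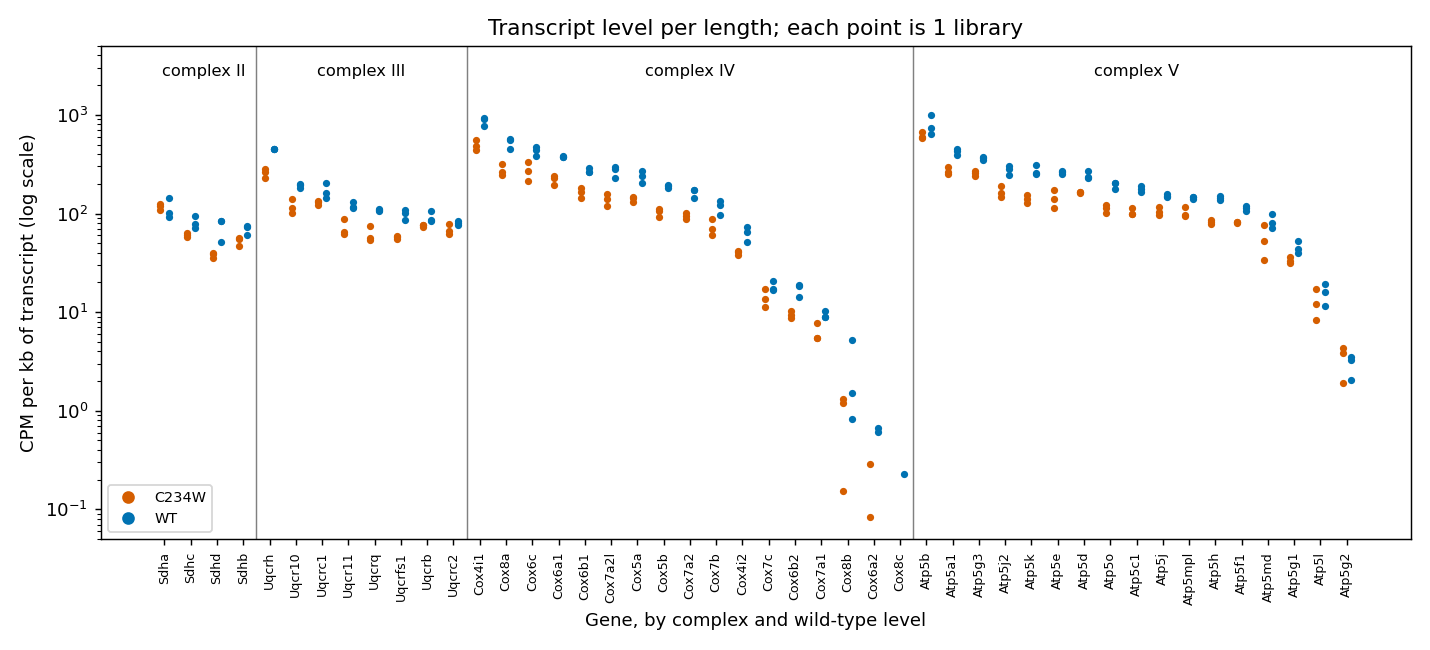
Level of each member in each library, in CPM per kilobase of transcript on a log axis, with members grouped by complex and ordered by WT mean. Points are libraries, C234W beside WT. Values of 0 cannot be drawn on a log axis, so Cox7b2 is absent. Most subunits sit lower in C234W than in WT. Among tested members the groups overlap for Sdha, Uqcrc2, Cox7c, Atp5b, Atp5g2, Atp5l and Atp5md.

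Tissue-specific forms were little expressed beside the common ones. The filter on low counts kept 43 members and removed Cox6a2, Cox7b2, Cox8b and Cox8c. Cox6a2, a heart and skeletal muscle form, had 0.055, 0.19 and 0 CPM in C234W libraries and 0.398, 0 and 0.441 CPM in WT libraries. Cox8b, another such form, had 0.055, 0.474 and 0.427 CPM in C234W and 1.86, 0.538 and 0.294 CPM in WT, so its highest value was in WT1A. Cox7b2 had 0 counts in all 6 libraries, and Cox8c had 2 counts, both in WT2A. The muscle form Cox7a1 passed the filter at 1.97, 1.99 and 2.80 CPM in C234W retinas and 3.19, 3.23 and 3.68 CPM in WT retinas. These groups did not overlap, but the difference did not pass (log2 fold change -0.58, SE 0.308, edgeR adjusted p = 0.268). Beside it, the summed level of 7 skeletal muscle markers ran from 3.84 to 4.65 CPM in C234W and from 10.7 to 12.2 CPM in WT, with 1 of the 4 markers tested called lower, and the part of muscle RNA in Cox7a1 was not tested.

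Most of these subunits were lower in C234W retinas. Their summed level was 5737, 5629 and 5450 CPM in C234W libraries and 8645, 8051 and 8542 CPM in WT libraries, so the C234W mean was 66.6% of the WT mean. The share was lowest for complex IV (56.9%), alike for complexes III (67.0%) and V (68.8%), and highest for complex II (88.0%). Sdha made up most of the complex II sum, and without it that share was 67.0%. In the edgeR quasi-likelihood test with Benjamini-Hochberg adjustment over 14685 genes, 13 of the 43 tested members fell, 0 rose and 30 did not pass. Of all tested genes 1.28% were called lower and 0.184% higher. The 13 were 2 subunits of complex III, 6 of complex IV and 5 of complex V. Their adjusted p lay between 0.0484 and 0.0497, just under the threshold of 0.05, and 5 more members had values between 0.05 and 0.06. At an unadjusted p under 0.05, 34 members were lower and 0 higher, against 13.5% and 11.9% of all tested genes. The groups did not overlap, with C234W lower, for 36 members, against 16.4% of all tested genes.

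The median log2 fold change of the tested members was -0.69, against 0.023 for all tested genes. It was -0.41 in complex II, -0.72 in complex III, -0.77 in complex IV and -0.57 in complex V. Of the 43 members 41 had a negative fold change, against 48% of all tested genes, and the exceptions were Sdha and Atp5g2. In whole tissue, fewer cells of a type and less of this RNA per cell cannot be told apart, and the part of the lower rod marker sum given above was not tested. None of the 4 rod markers was called in edgeR. Other marker sums also moved with genotype without overlap, and their part was not tested either. The sum of 4 Müller glia markers was 2617 to 3083 CPM in C234W and 3308 to 4422 CPM in WT, and that of 4 ganglion cell markers 1072 to 1428 CPM in C234W and 1430.5 to 1644 CPM in WT. The sum of 4 erythrocyte markers was 30.8 to 42.0 CPM in C234W and 61.3 to 116 CPM in WT. Bipolar cell markers went the other way, with a sum over 4 genes of 773 to 828 CPM in C234W and 487 to 630 CPM in WT. None of these 4 lists held a called marker in edgeR.

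The calls depended on the libraries and the test. Leaving out WT1A raised the members called lower to 29, against 9.39% of all tested genes (9.13% higher), with a median log2 fold change of -0.74, while leaving out any other library gave 0. In those fits 30 to 32 members were lower at an unadjusted p under 0.05, against 8.63% to 12.3% of all tested genes, and DESeq2 called 15 to 26 members lower, against 1.95% to 6.32%. Without WT1A the WT group is WT2A and WT2B, which share a number in their names and were the closest pair of libraries. The labels do not say whether they came from the same animal, so the WT spread behind these calls may be technical. Without WT1A the calls held the 13 and added 16: Sdhd, Uqcr10, Uqcr11, Uqcrq, Cox4i2, Cox5a, Cox6b1, Cox6b2, Cox6c, Cox7b, Atp5a1, Atp5d, Atp5f1, Atp5g3, Atp5j and Atp5j2. By complex the calls without WT1A were 1 in II, 5 in III, 12 in IV and 11 in V. The log2 fold changes of Uqcrb, Uqcrc1 and Atp5b were nearer to 0 without WT1A (-0.17, -0.24 and -0.15), and that of Atp5l was further from it (-0.47). Summing the libraries that share a number in their names, which leaves 2 against 2, also gave 0 calls, with a smallest adjusted p of 0.378 and 29 members lower at an unadjusted p under 0.05, against 6.75% of all tested genes. Other scalings in place of TMM gave 0 as well, with 27 to 34 members lower at an unadjusted p under 0.05, against 6.47% to 13.1% of all tested genes, and the smallest adjusted p between 0.0503 and 0.0639. On all 6 libraries DESeq2 called 30 members lower and 0 higher, against 7.24% and 4.71% of all tested genes. In limma-voom 15 members were lower and 0 higher, against 1.4% and 0.232% of all tested genes. At an edgeR adjusted p under 0.1, 30 members were lower, against 6.82% of all tested genes.

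**Figure D2:**
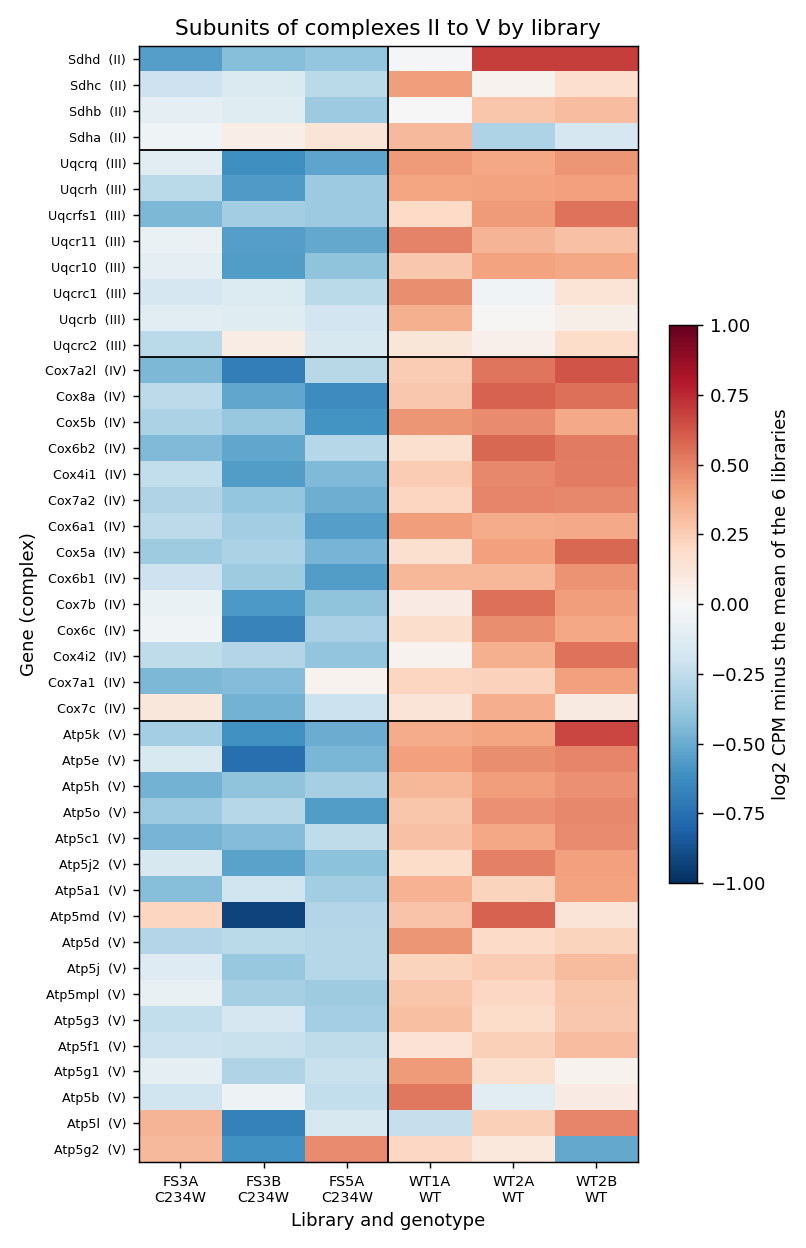
Deviation of each tested member from its own mean over the 6 libraries, in log2 CPM, with libraries in columns (C234W left, WT right) and members in rows by complex. Blue-to-red shading runs from lower to higher; 41 of 43 members have a lower C234W than WT average in the fitted comparison, and WT1A differs from the other WT libraries for members such as Sdhd and Atp5b.

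No subunit of complex II passed in edgeR on all 6 libraries, and the 4 differed among themselves in how far C234W lay below WT. Sdhd, a membrane anchor that helps to bind ubiquinone (NM_025848, chr9:50596340-50603849, minus strand, mm10), was measured at 45.2, 49.2 and 50.7 CPM in C234W and 65.2, 107 and 107 CPM in WT. The groups were apart, with WT1A nearest to C234W (log2 fold change -0.94, SE 0.207, edgeR adjusted p = 0.056, DESeq2 adjusted p = 0.00266). In edgeR Sdhd passed without WT1A (log2 fold change -1.14, SE 0.13, adjusted p = 0.0124) and with no filter on low counts (-0.94). Without WT1A the WT values are those of WT2A and WT2B alone, the closest pair of libraries. Sdhc, the other membrane anchor, had 70.8, 73.8 and 67.7 CPM in C234W and 109, 83.6 and 92.0 CPM in WT (log2 fold change -0.42, SE 0.152, adjusted p = 0.137). Sdhb, the iron-sulfur subunit, had 60.2, 59.3 and 50.1 CPM in C234W and 64.2, 78.3 and 80.0 CPM in WT (log2 fold change -0.39, SE 0.159, adjusted p = 0.171). Neither passed, although the groups of each did not overlap. Sdha, the flavoprotein that oxidises succinate (NM_023281, chr13:74322255-74350240, minus strand, mm10), had 312, 338 and 352 CPM in C234W and 404, 260 and 287 CPM in WT. The C234W values lay inside the WT range, which WT1A set at its upper end (log2 fold change 0.074, SE 0.192, adjusted p = 0.838), and the sign was negative without WT2A (-0.046). Without WT1A it was 0.29.

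Because the 4 proteins of complex II assemble in equal numbers, their RNAs were also set against Sdha within each library, as ratios of CPM. These ratios are not corrected for length. Sdha has 2842 bases, against 1279 for Sdhd, 1171 for Sdhc and 1069 for Sdhb, so the percentages are not ratios of transcript numbers. The Sdhd level was 14.5%, 14.6% and 14.4% of the Sdha level in C234W and 16.2%, 41.1% and 37.3% in WT, in the order WT1A, WT2A, WT2B. The groups did not overlap, but WT1A was close to C234W, and the exact two-sided permutation test gave p = 0.1, the smallest that 3 against 3 libraries allow (0.5 after adjustment over 10 ratios). Sdhc stood at 22.7%, 21.9% and 19.2% of Sdha in C234W and 27.1%, 32.1% and 32.1% in WT, also at exact p = 0.1 (adjusted p = 0.5). Sdhb relative to Sdha overlapped between the groups (exact p = 0.3). A design of this size could not have reached 0.05 for any ratio.

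In complex III, the called members were the hinge protein Uqcrh and the Rieske iron-sulfur protein Uqcrfs1, which carries electrons to cytochrome c1. Uqcrh (NM_025641, chr4:116066965-116075070, minus strand, mm10) fell to 153, 125 and 143 CPM in C234W, against 242, 243 and 245 CPM in WT. The WT libraries were nearly level and every C234W library was well below them (log2 fold change -0.79, SE 0.144, edgeR adjusted p = 0.0484). Uqcrfs1 fell to 71.6, 76.8 and 76.0 CPM in C234W, against 112, 131 and 143 CPM in WT (log2 fold change -0.78, SE 0.148, adjusted p = 0.0484). Uqcrq, a small subunit next to cytochrome b, had 114, 81.2 and 86.0 CPM in C234W and 167, 162 and 168 CPM in WT, with adjusted p = 0.0512 in edgeR. The larger core proteins had smaller fold changes than the called members, before transcript length was taken into account. Relative to genes of like length (described below), Uqcrc1 was at -0.21 and Uqcrc2 at -0.10. The other members of the complex ran from -0.61 for Uqcrq to 0.28 for Uqcrb, with Uqcr10 at -0.092 and Uqcr11 at -0.11. Uqcrc2 had 115, 146 and 124 CPM in C234W and 151, 144 and 157 CPM in WT, with overlap (log2 fold change -0.23, SE 0.148, adjusted p = 0.354). Uqcrc1 was at 212 ± 9.79 CPM in C234W and 280 ± 50.1 CPM in WT (SD, n = 3 each; adjusted p = 0.183 in edgeR). Uqcrb, a small subunit also beside cytochrome b, had 41.6, 41.2 and 39.3 CPM in C234W and 57.4, 45.2 and 46.6 CPM in WT. It did not pass (log2 fold change -0.29, SE 0.157, adjusted p = 0.274). Uqcr10 and Uqcr11, the smallest subunits, had log2 fold changes of -0.69 and -0.74 (adjusted p = 0.0607 and 0.0631 in edgeR).

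Complex IV held the most called members. Cox5b, a zinc-binding peripheral subunit on the matrix side (NM_009942, chr1:36691487-36693388, plus strand, mm10), fell to 62.8, 59.95 and 51.6 CPM in C234W, against 106, 108 and 102 CPM in WT. Its groups were far apart (log2 fold change -0.86, SE 0.144, edgeR adjusted p = 0.0484). Cox8a fell to 171, 143 and 132 CPM in C234W, against 247, 309 and 301 CPM in WT (log2 fold change -0.94, SE 0.167, adjusted p = 0.0484). Cox7a2l, which joins complex IV to complex III in supercomplexes, fell to 161, 136 and 181 CPM in C234W, against 262, 320 and 340 CPM in WT. It had the largest fall of the complex (log2 fold change -0.95, SE 0.173, adjusted p = 0.0484). The C57BL/6 strains are known for a shortened form of the Cox7a2l protein, and both groups are of this background. Cox4i1 was 364, 292 and 317 CPM in C234W and 513, 603 and 615 CPM in WT (adjusted p = 0.0497). Cox6a1, at 135, 127 and 111 CPM in C234W and 217, 209 and 211 CPM in WT, and Cox7a2, at 75.1, 70.5 and 65.6 CPM in C234W and 107, 130 and 129 CPM in WT, were the remaining called members (adjusted p = 0.0484 each).

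The 8 uncalled members of complex IV also had negative fold changes. Cox6b1, which sits at the face where cytochrome c docks, had 85.2, 76.8 and 66.5 CPM in C234W and 124, 124 and 134 CPM in WT, with adjusted p = 0.0504 in edgeR. Cox5a, a matrix-side subunit like Cox5b, was at 96.3 ± 5.10 CPM in C234W and 164 ± 23.4 CPM in WT (SD, n = 3 each; edgeR adjusted p = 0.0504). Cox7b had 86.7, 61.0 and 68.8 CPM in C234W and 96.2, 133 and 122 CPM in WT (log2 fold change -0.70, SE 0.189, adjusted p = 0.076). Cox6c was at 135 ± 29.2 CPM in C234W and 215 ± 21.7 CPM in WT (SD, n = 3 each; adjusted p = 0.0816 in edgeR). Cox7c, with its many shared words, had 7.61, 5.03 and 6.04 CPM in C234W and 7.70, 9.10 and 7.504 CPM in WT, with overlap (log2 fold change -0.38, SE 0.25, adjusted p = 0.362).

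No paralogue passed the test as higher where its partner was lower. Cox4i2, the oxygen-responsive alternative to Cox4i1, had 30.3, 29.5 and 27.6 CPM in C234W and 37.2, 46.3 and 52.8 CPM in WT (log2 fold change -0.64, SE 0.174, adjusted p = 0.0776 in edgeR). In CPM it stood at 8.33%, 10.1% and 8.68% of Cox4i1 in C234W and 7.25%, 7.69% and 8.59% in WT. The groups overlapped in this ratio, which is not corrected for length (exact permutation p = 0.2). The testis form Cox6b2 had 4.27, 4.03 and 4.76 CPM in C234W and 6.51, 8.72 and 8.39 CPM in WT (adjusted p = 0.0879), and as a share of Cox6b1 it was 5.81% ± 1.17 in C234W and 6.19% ± 0.895 in WT (SD, n = 3 each; exact permutation p = 0.7). The ratios Cox7a1 to Cox7a2 and Cox7a2l to Cox7a2 overlapped as well (exact p = 0.7 and 0.4). Missing the threshold in groups this small does not show that the ratios were equal.

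The called members of ATP synthase lay in the membrane part, the peripheral stalk and the rotor. These calls were just under the threshold, and uncalled members shared these parts, such as Atp5g3 of the rotor ring (edgeR adjusted p = 0.0796). A difference between parts of the enzyme was not tested. Atp5k, subunit e of the membrane part that supports pairing of the enzyme (NM_007507, chr5:108433246-108434399, minus strand, mm10), fell to 48.6, 40.5 and 43.7 CPM in C234W, against 79.7, 80.8 and 97.9 CPM in WT. This was the largest fall among the tested members (log2 fold change -0.96, SE 0.157, edgeR adjusted p = 0.0484). Atp5h, subunit d of the peripheral stalk, fell to 44.2, 46.3 and 48.7 CPM in C234W, against 77.4, 82.0 and 84.2 CPM in WT (log2 fold change -0.81, SE 0.138, adjusted p = 0.0484). Atp5o, the stalk protein that confers oligomycin sensitivity, fell to 87.8, 92.5 and 76.5 CPM in C234W, against 137, 155 and 157 CPM in WT (log2 fold change -0.80, SE 0.147, adjusted p = 0.0484). The rotor shaft subunits gamma and epsilon fell as well. Atp5c1 (gamma) was at 175, 179 and 203 CPM in C234W and 297, 317 and 336 CPM in WT (adjusted p = 0.0484), and Atp5e (epsilon) at 70.5, 46.4 and 56.8 CPM in C234W and 104, 108 and 110 CPM in WT (adjusted p = 0.0497).

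The head subunits that bind nucleotide carried most of the CPM of complex V, which is not corrected for length, and were not called. Their transcripts are the longest of the complex, at 2417 bases for Atp5a1 and 1867 bases for Atp5b. Per kilobase the WT means were 424 CPM for Atp5a1 and 793 CPM for Atp5b, against 362 CPM for Atp5g3. Atp5b (beta) had 1125, 1252 and 1090 CPM in C234W and 1867, 1200 and 1372 CPM in WT, so that WT2A lay inside the C234W range (log2 fold change -0.36, SE 0.204, adjusted p = 0.299). Atp5a1 (alpha) had 609, 710 and 641 CPM in C234W and 1038, 953 and 1080 CPM in WT, without overlap (log2 fold change -0.65, SE 0.158, adjusted p = 0.0631). The alpha to beta ratio in CPM was 54.1%, 56.7% and 58.8% in C234W and 55.6%, 79.5% and 78.7% in WT. WT1A again lay beside the C234W libraries in this ratio, which is not corrected for length (exact permutation p = 0.3). Without Atp5b the summed level of complex V was 1852 ± 24.9 CPM in C234W and 2892 ± 96.6 CPM in WT (SD, n = 3 each).

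The rotor ring of ATP synthase is built of subunit c, encoded by 3 genes for the same mature protein. Atp5g3, the main source here, had 184, 194 and 172 CPM in C234W and 268, 248 and 263 CPM in WT (log2 fold change -0.50, SE 0.139, adjusted p = 0.0796 in edgeR). Atp5g1 had 28.8, 24.9 and 26.3 CPM in C234W and 41.3, 34.4 and 31.6 CPM in WT (log2 fold change -0.42, SE 0.168, adjusted p = 0.165). Atp5g2 had 2.46, 1.23 and 2.74 CPM in C234W and 2.26, 2.10 and 1.32 CPM in WT. Its groups overlapped and its positive fold change was uncertain (log2 fold change 0.17, SE 0.418, adjusted p = 0.832), and it was negative without WT2B (-0.026) or without FS5A (-0.046). Atp5l, subunit g of the membrane part, had 8.76, 4.27 and 6.16 CPM in C234W and 5.84, 8.13 and 9.71 CPM in WT, also with overlap (log2 fold change -0.30, SE 0.325, adjusted p = 0.583). The remaining complex V members, Atp5d, Atp5f1, Atp5j, Atp5j2, Atp5md and Atp5mpl, had log2 fold changes between -0.73 and -0.46 and were not called.

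**Figure D3:**
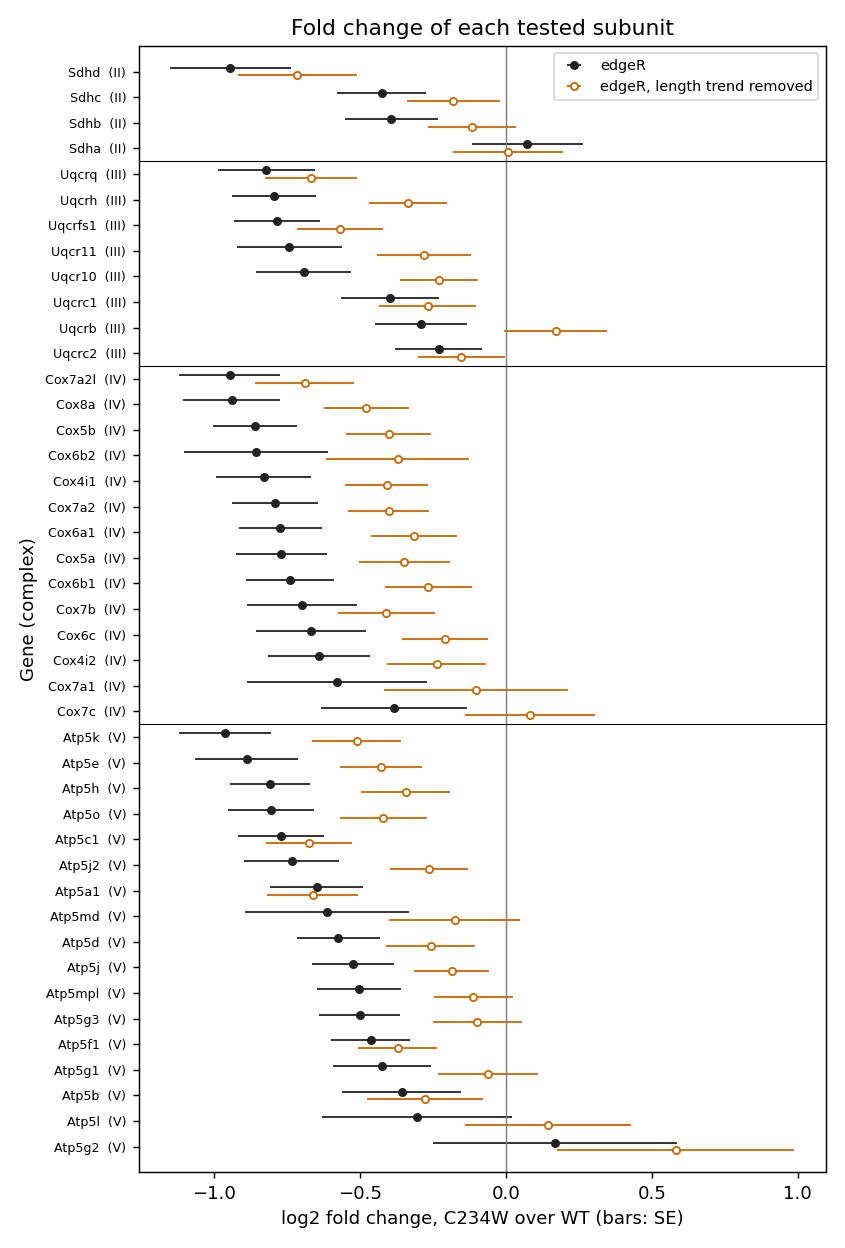
Log2 fold change of each tested member, C234W over WT, from edgeR (filled points) and from edgeR with each library's trend on transcript length removed (open points), with bars of 1 SE, members grouped by complex. Removing the trend brings short subunits such as Uqcrh and Atp5e nearer to 0 and leaves Atp5a1, among the longest, where it was (-0.65 and -0.66).

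The subunits are short transcripts, and transcript length moved with genotype over all genes. The members' median length was 717 bases, against 3020 bases for all tested genes, and the log2 fold change of all tested genes rose by 0.189 for each doubling of length. Each member was therefore set against the tested genes outside the list with a length of at least 0.8 times its own and no further above it than that ratio. The median log2 fold change of those genes of like length was -0.45, and the members' median difference from them was -0.20, with 35 of 43 on the lower side. The median difference was -0.065 in complex II, -0.16 in complex III, -0.26 in complex IV and -0.18 in complex V. With genes matched on both length and expression, to within 1 log2 unit of mean level, the median difference was -0.0045, and 23 of 43 members were on the lower side. Those matched sets held 2 to 371 genes each, and over the 36 members with at least 20 matched genes the median difference was -0.0052. The lower position seen against length alone was thus absent against genes both as short and as abundant.

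By class of length, with no matching on expression, the members' medians lay below those of other genes in each class listed. Below 600 bases the 18 members had a median log2 fold change of -0.74, against -0.53 for 281 other genes, with 7 members called and 8.54% of the others. Between 600 and 1200 bases the medians were -0.57 for 15 members and -0.41 for 1182 other genes, with 4 members called and 5.84% of the others. Between 1200 and 2000 bases they were -0.62 for 8 members and -0.21 for 2564 other genes, with 2 members called and 1.56% of the others. The class between 2000 and 3000 bases held 2 members of opposite sign, Sdha (0.074) and Atp5a1 (-0.65). Their median was -0.29, against -0.020 for 3203 other genes, with 0 members called and 0.812% of the others.

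**Figure D4:**
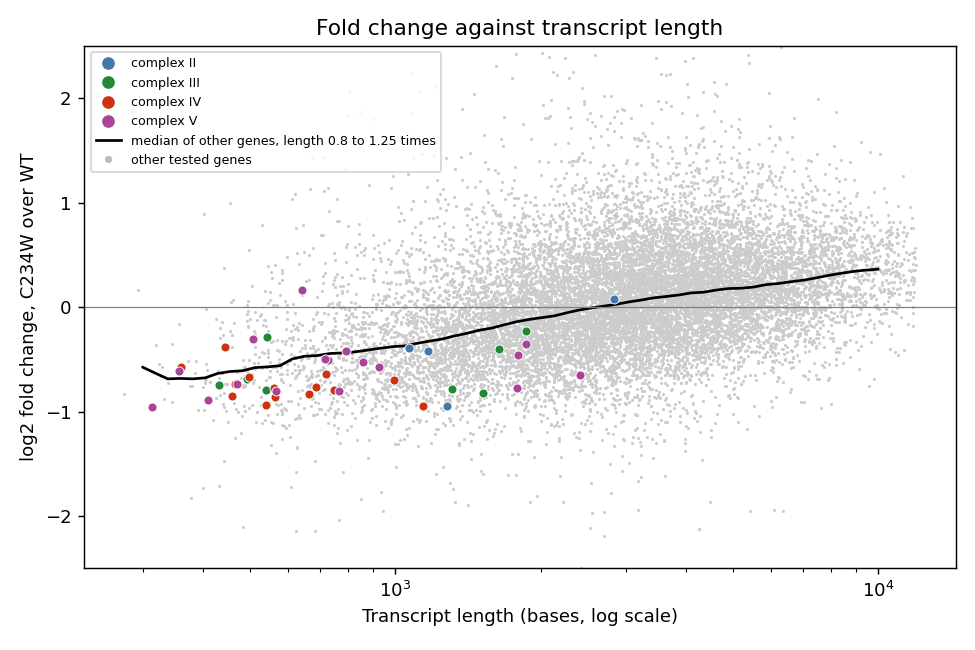
Log2 fold change, C234W over WT, against transcript length in bases on a log axis, for all tested genes (grey) and for the members coloured by complex. The members sit at the short end, where other genes are also lower, and 35 of 43 lie below the median of other genes of like length (line); genes outside the axis limits are not drawn.

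Single members departed from genes of their length by more than the median. Sdhd was lowest, at -0.65 relative to 1646 genes of like length, followed by Atp5c1 (-0.63), Atp5a1 (-0.62), Uqcrq (-0.61), Cox7a2l (-0.60) and Uqcrfs1 (-0.50). Against genes of like length and expression these differences were smaller, at -0.50 for Sdhd, -0.38 for Atp5c1, -0.24 for Atp5a1, -0.41 for Uqcrq, -0.32 for Cox7a2l and -0.33 for Uqcrfs1. These 6 are also among the longer members, with lengths from 1143 bases for Cox7a2l to 2417 bases for Atp5a1. At the other end lay Atp5g2 (0.65), Atp5l (0.29), Uqcrb (0.28) and Cox7c (0.24), which shared between 43.2% and 68.5% of their words with other genes. When the length trend of each library was removed before the edgeR test, 0 members and 0 of all genes passed, with 16 members lower at an unadjusted p under 0.05 against 13.5% of all tested genes. Under that removal 38 of 43 members kept a negative fold change, against 54.1% of all tested genes, and the median was -0.28, while Atp5l, Cox7c and Uqcrb turned positive (0.14, 0.083 and 0.17). DESeq2 after the same removal, an alternative chosen after seeing the data, called 7 members lower and 0 higher, against 5.69% and 1.73% of all tested genes. They were Sdhd, Uqcrfs1, Uqcrq, Cox7a2l, Cox8a, Atp5a1 and Atp5c1.

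Library by library, the members and the genes of like length, which were not matched on expression, moved together. The median member deviation from its own mean was -0.22, -0.39 and -0.35 log2 units in C234W and 0.28, 0.37 and 0.40 in WT. For genes of like length it was -0.13, -0.31 and -0.27 in C234W and 0.19, 0.28 and 0.26 in WT. The remainder, member minus like length, had a median of -0.12, -0.073 and -0.13 in C234W and 0.086, 0.060 and 0.095 in WT. The groups did not overlap in this remainder over all members or in complexes III, IV and V, whereas they overlapped in complex II, at 0.0405 in FS3B and -0.0515 in WT2A.

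**Figure D5:**
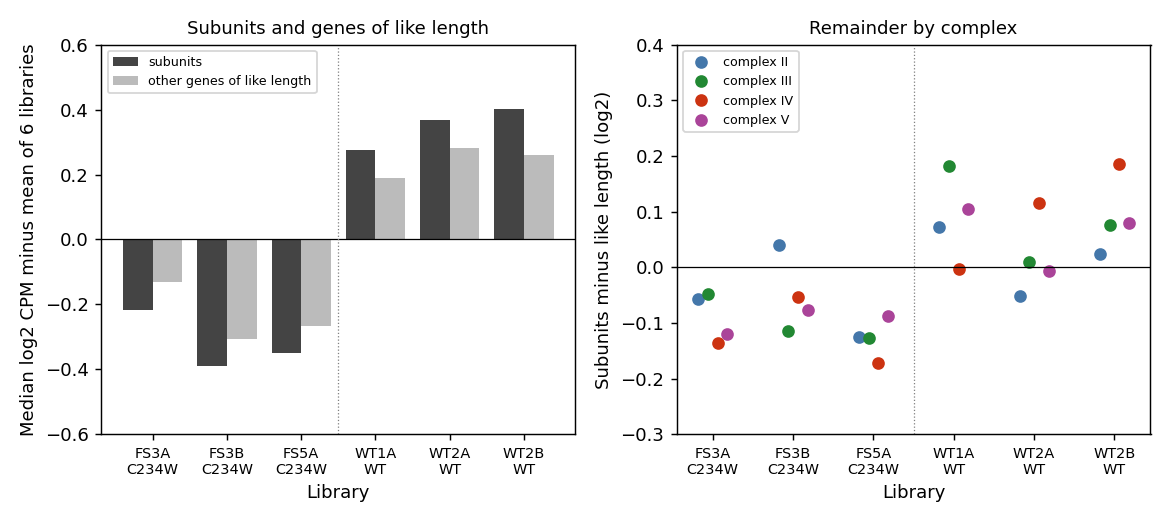
Left, median log2 CPM of members and of other genes of like length in each library, relative to each gene's mean over the 6 libraries; right, the remainder after subtracting genes of like length, by complex. Members and like-length genes are both negative in the 3 C234W libraries and positive in the 3 WT libraries, and the remainder by complex lies between -0.17 and 0.19.

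Proteins that assemble these complexes or work beside them were examined as a separate list of 39 genes. There 2 fell, 0 rose and 37 did not pass in edgeR, against 1.28% lower and 0.184% higher of all tested genes. The median log2 fold change of the list was -0.34, against 0.023 for all tested genes, at a median length of 1485 bases. Relative to genes of like length the median difference was -0.11. The called genes were Sdhaf1, an assembly factor that helps to insert iron-sulfur clusters into Sdhb, and Coa5, an assembly factor of complex IV. Sdhaf1 fell to 36.5, 33.5 and 39.0 CPM in C234W, against 63.1, 61.9 and 64.3 CPM in WT (log2 fold change -0.80, SE 0.144, adjusted p = 0.0484). Coa5 fell to 87.6, 84.3 and 88.2 CPM in C234W, against 128, 141 and 151 CPM in WT, although its transcript of 3857 bases is long (log2 fold change -0.69, SE 0.137, adjusted p = 0.0498). Cyc1, the cytochrome c1 subunit of complex III whose symbol lies outside the rule, had a log2 fold change of -0.31 (adjusted p = 0.191 in edgeR). DESeq2 called 9 of the list lower and 1 higher, against 7.24% and 4.71% of all tested genes. Subunits encoded in the mitochondrial genome were not analysed here.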

How the data were processed

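Poly-A retinal RNA of 3 C234W and 3 WT libraries was measured. Reads were aligned to mm10 with STAR (2.7.8a) and counted with HOMER (4.11), per the submitters' processing notes and the series' design text, with exonic, minus-strand tags kept only where mapped uniquely and a single isoform kept per locus. The values are estimated counts deposited by the authors per the file headers, not normalized and in steps of 0.5, and 28.3 to 32.1% of values per library were not whole. Reads that fit several near-identical copies drop out under unique mapping, so shared 50-base words were counted against GENCODE transcripts at other loci.

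Counts were rounded to whole numbers, filtered with filterByExpr, scaled by TMM and compared with the quasi-likelihood test of edgeR (4.0.16, R 4.3.3), with no covariate and with Benjamini-Hochberg adjustment over 14685 genes at a threshold of 0.05. Fold changes are C234W over WT, with SE. The share of counts in genes was 65.8 to 74.4% of the header totals. No pair of libraries was alike enough to be a duplicate (smallest chi-square per degree of freedom 9.97). DESeq2 (1.42.0) and limma-voom (3.58.1) were alternatives, as were other scalings, filters, windows of length and leaving out each library; removal of a length trend used a loess curve of span 0.3 in each library. Ratios were compared by exact permutation of the libraries. The scripts were tested on simulated counts.

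Members and lists were chosen with earlier results of these data known, so no list was given a test of its own. Values in each library are given for the complex II genes, the 3 members with the smallest and the 2 with the largest p in each other complex, positive members, paralogues and members described later in the text, some of them chosen after their values were seen. A listed marker gene is not reported here. Members not tested had too few counts for the filter.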

Additional observations from a re-analysis of the deposited data

How the results depend on the processing

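The count of members called higher was 0 in every alternative that gave one, and the median log2 fold change stayed negative in each. The median difference from genes of like length stayed negative wherever genes were matched on length alone. Against genes of like length and expression it was all but absent (-0.0045, with 23 of 43 members on the lower side). By complex that difference was 0.092 in II, -0.019 in III, -0.077 in IV and 0.066 in V. The count called lower, 13, became 0 with RLE, upper-quartile, total-count or header-total scaling, with the length trend removed, with same-number libraries summed, or at an adjusted p under 0.01 (27 to 34, 16 and 29 members at an unadjusted p under 0.05 for the scalings, the trend and the summed libraries). It became 30 in DESeq2 and at an adjusted p under 0.1 (6.82% of all tested genes) and 7 in DESeq2 with the length trend removed. It was 17 with no filter and 15 in limma-voom. Leaving out each library gave 0 to 29 in edgeR, with 29 only without WT1A, and 15 to 31 in DESeq2 (31 without WT1A, 25 without FS3A, 26 without FS3B and 21 without FS5A). Without WT1A the WT spread is that between WT2A and WT2B alone, which may come from the same animal. The median log2 fold change moved to -0.52 and -0.59 with scaling to counts in genes and to header totals, which shifted the median of all genes to 0.20 and 0.13, and to -0.28 in both tools with the length trend removed. Leaving out each library gave -0.77 to -0.65. The median difference from genes of like length moved to -0.25 with no filter, -0.23 with same-number libraries summed, -0.18 with lengths within 10%, and -0.0045 with like length and expression. Leaving out each library gave -0.23 to -0.16. Sign changes were seen for Atp5l, Cox7c and Uqcrb with the length trend removed (0.14, 0.083 and 0.17), for Sdha without WT2A (-0.046; range -0.046 to 0.29 over the libraries left out), and for Atp5g2 without WT2B (-0.026) or FS5A (-0.046; range -0.046 to 0.45). Apart from the length trend's removal, which changes the fold changes by construction, the cause of these moves was not tested. No paired analysis was possible because the columns carry no replicate number of the labels. Counting error limits the low members: Cox7a1, Atp5g2 and the untested muscle and testis forms rest on few counts.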
